A study of Mus musculus with 2 samples.

Results

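In all, 9 genes of the TNF, interleukin-1 and NF-kB system were followed through mouse immune cells: the cytokine genes Tnf and Il1b, the interleukin-1 antagonists Il1rn and Il1r2, the NF-kB subunits Nfkb1 and Relb, and the NF-kB inhibitors and feedback genes Nfkbia, Nfkbiz and Tnfaip3. They were taken by gene symbol, and all 9 were among the 33696 genes of the deposited tables. The KO library came from Alb-Cre Bicd2fl/fl mice, in which Cre under the albumin promoter deletes the floxed dynein adaptor gene Bicd2 in hepatocytes, and the WT library from Alb-WT Bicd2fl/fl mice, which carry the floxed alleles and no Cre. Mice of both genotypes were injected in the peritoneum once a week for 3 weeks with 2.5 mg of S-100 (the supernatant of homogenised liver, given with complete Freund's adjuvant), which models autoimmune hepatitis. The series text describes liver immune cells from a Percoll gradient, freed of red cells and sorted alive, while the sample labels call them peritoneal and give the treatment as HFD, and the labels do not settle this conflict. The number of mice pooled and their age are not given in the sources used here. Each genotype was measured in 1 droplet-based 3' single-cell RNA library. No difference below therefore has a replicate check, no test was made, and every interval is a 95% interval that covers counting error only.

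TNF and interleukin-1 beta are early inflammatory cytokines of myeloid cells and, for TNF, also of T and natural killer cells. Their receptors activate NF-kB, dimers of the Rel family that inhibitor proteins hold in the cytoplasm until they are degraded. Active NF-kB induces its own brakes, among them IkB alpha (Nfkbia) and the ubiquitin-editing enzyme A20 (Tnfaip3), so the level of these mRNAs is widely used as a readout of recent NF-kB activity. The interleukin-1 receptor antagonist (Il1rn) blocks the signalling receptor, and the decoy receptor (Il1r2) binds the cytokine without signalling. In the liver, Kupffer cells and recruited monocytes are known sources of both cytokines.

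Upstream sequences are shown for the cytokine genes Tnf and Il1b and the feedback genes Tnfaip3 and Nfkbia, all past 2-fold lower in KO monocyte-macrophage-like cells. Each sequence, 1 per gene, covers the 250 bases before an annotated RefSeq transcript start (GRCm38.p6), written 5′ to 3′ on the gene's strand. Capitals mark matches, on either strand, to the kappa B motif, a run of 10 bases read as 3 G, any 3 bases, 2 pyrimidines and 2 C.
Tnf (chr17:35202008-35202257, minus strand): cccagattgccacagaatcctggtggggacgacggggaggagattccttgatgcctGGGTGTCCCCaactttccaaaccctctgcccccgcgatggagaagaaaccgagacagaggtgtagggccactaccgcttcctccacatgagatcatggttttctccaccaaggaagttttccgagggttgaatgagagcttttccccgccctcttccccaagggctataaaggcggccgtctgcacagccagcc
Tnfaip3 (chr10:19015411-19015660, minus strand): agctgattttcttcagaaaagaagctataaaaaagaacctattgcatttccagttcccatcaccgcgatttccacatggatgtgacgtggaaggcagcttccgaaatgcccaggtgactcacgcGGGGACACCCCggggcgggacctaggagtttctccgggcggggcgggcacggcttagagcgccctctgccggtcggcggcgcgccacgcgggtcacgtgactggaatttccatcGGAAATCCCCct
Nfkbia (chr12:55492648-55492897, minus strand): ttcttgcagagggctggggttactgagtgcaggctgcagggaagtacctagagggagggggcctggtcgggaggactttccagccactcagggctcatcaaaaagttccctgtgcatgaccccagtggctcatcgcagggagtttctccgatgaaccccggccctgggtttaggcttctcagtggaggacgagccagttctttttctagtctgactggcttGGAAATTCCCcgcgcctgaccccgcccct
Il1b (chr2:129371140-129371389, minus strand): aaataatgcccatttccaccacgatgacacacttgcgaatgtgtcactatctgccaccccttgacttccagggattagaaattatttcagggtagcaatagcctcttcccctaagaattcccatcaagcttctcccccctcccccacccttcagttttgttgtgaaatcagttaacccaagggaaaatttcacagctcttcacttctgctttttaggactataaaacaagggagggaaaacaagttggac
The match lies 194 bases before the Tnf start and 29 bases before the Nfkbia start, and the Tnfaip3 window holds matches at 126, 125 and 12 bases, of which those at 126 and 125 bases overlap. The Il1b window holds none. Another Tnfaip3 window, not shown, holds 1 match, at 90 bases. Il1rn, also past 2-fold lower in KO monocyte-macrophage-like cells, has several windows, which are not shown. Of these, 1 holds a match, at 51 bases, and the others hold none. The table held 9 RefSeq windows for 6 of the 9 genes, and 5 of these 9 windows held a match, while 16.8% of 32851 windows of the same length in the table did. A match describes letters and not a bound site, and a window without one says only that these letters are not in it.

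In all, 27033 KO and 22197 WT barcodes were deposited, with 63869430 and 81159013 UMIs (unique molecular identifiers, which count captured mRNA molecules). After filtering, 15619 KO cells with a median of 2003 UMIs and 17080 WT cells with a median of 2793 UMIs were kept. The libraries shared 70 kept barcodes. Bicd2 itself was at 13.3 CPM in KO and 19.8 CPM in WT over all kept cells (CPM, UMIs per 1000000 UMIs of the cells concerned), but the albumin promoter is not expected to be active in immune cells, so this does not check the deletion. An unnamed cluster with hepatocyte markers (99 KO and 44 WT cells) had 3 Bicd2 UMIs in KO, or 10.5 CPM, and 0 in WT, which allows up to 28.1 CPM, so a difference was not detectable there at this depth. Haemoglobin took 22.9% of kept KO UMIs and 11.1% of kept WT UMIs. Neutrophil marker RNA outside neutrophils was more abundant in WT: the 11 neutrophil marker genes summed to 336 CPM in KO and 2583 CPM in WT erythroid-like cells, which do not express them, and all 11 were seen in both. Cell classes were rebuilt from marker genes, and the 8 classes with at least 100 cells in each library are described. Clusters left unnamed, for their haemoglobin share or for leading genes of another class, held 20.0% of kept KO cells and 3.34% of kept WT cells. They are left out of the classes, though some carry T or B markers.

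Tnf mRNA was carried mainly by T-like, monocyte-macrophage-like and neutrophil-like cells, and its level over all kept cells was 11.1 CPM in KO and 27.8 CPM in WT. In KO its highest levels were 27.1 CPM in neutrophil-like and 20.3 CPM in T-like cells, whose intervals overlapped, and monocyte-macrophage-like cells followed at 10.9 CPM. In WT the highest level was that of monocyte-macrophage-like cells (43.0 CPM), with neutrophil-like (36.4 CPM) and T-like cells (34.0 CPM) next, each neighbour overlapping in its interval. The 2 lymphocyte classes apart from T cells carried little: NK-ILC1-like cells, named from markers of natural killer cells and of innate lymphoid cells of type 1, had 1.64 CPM in KO from 3 UMIs and 14.5 CPM in WT from 41 UMIs, and B-like cells had 1.80 CPM in KO and 7.99 CPM in WT. Erythroid-like cells, taken as the background of free RNA, were at 1.25 CPM in KO and 1.29 CPM in WT.

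Il1b was a neutrophil gene in both libraries, with 1509.7 CPM in KO and 787 CPM in WT neutrophil-like cells. Neutrophil-like cells held 62.9% of all kept Il1b UMIs in KO and 80.5% in WT, while they were 9.73% of kept cells in KO and 25.2% in WT. Unnamed clusters held a further 17.7% in KO (863 UMIs) and 2.47% in WT (311 UMIs). Of these, 791 in KO and 266 in WT lay in cluster 20, which carried neutrophil genes beside haemoglobin and is not counted as neutrophil-like. Monocyte-macrophage-like cells were next with 76.2 CPM in KO and 154 CPM in WT, and conventional dendritic (DC-like) cells after them with 57.3 CPM in KO and 57.1 CPM in WT. The remaining classes lay between 4.70 and 17.2 CPM in KO and between 10.5 and 19.4 CPM in WT, and neighbours among them overlapped in their intervals. In these classes the level of B-like cells, 9.89 CPM in KO and 18.7 CPM in WT, is as high as that of T-like and NK-ILC1-like cells. The class levels of Il1b in these cells are therefore read as background here. This does not cover every T-like cluster: cluster 26 was at 123 CPM in WT (26 UMIs in 67 cells) and 8.50 CPM in KO (1 UMI in 43 cells).

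Both antagonists had the same main carrier. Il1rn was at 134 CPM in KO and 91.3 CPM in WT neutrophil-like cells, and at 12.7 CPM in KO and 55.8 CPM in WT monocyte-macrophage-like cells. Il1r2 was at 724.5 CPM in KO and 344 CPM in WT neutrophil-like cells. In the other 7 classes Il1r2 was at or under 18.4 CPM in KO and 22.8 CPM in WT.

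The subunits and inhibitors were spread over all nucleated classes. Nfkb1, whose product p105 is processed to the p50 subunit, was at 486 to 527 CPM in KO and 543 to 616 CPM in WT dendritic classes and at its lowest outside erythroid-like cells in neutrophil-like cells, 170.2 CPM in KO and 174 CPM in WT. Relb, the partner of p52 in the noncanonical pathway, was led in KO by B-like (99.4 CPM) and DC-like cells (98.7 CPM), which overlapped, and in WT by DC-like cells (184 CPM) before B-like cells (119.9 CPM), which did not. Nfkbia was highest in KO in neutrophil-like cells (538 CPM) and in WT in monocyte-macrophage-like cells (642 CPM). Nfkbiz, which encodes the nuclear cofactor IkB zeta, led in neutrophil-like cells of both libraries, with 298 CPM in KO and 224 CPM in WT. Tnfaip3 led in T-like cells of both libraries, with 58.8 CPM in KO and 115 CPM in WT, and T-like cells held 52.1% of its kept UMIs in KO and 59.2% in WT.

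**Figure D1:**
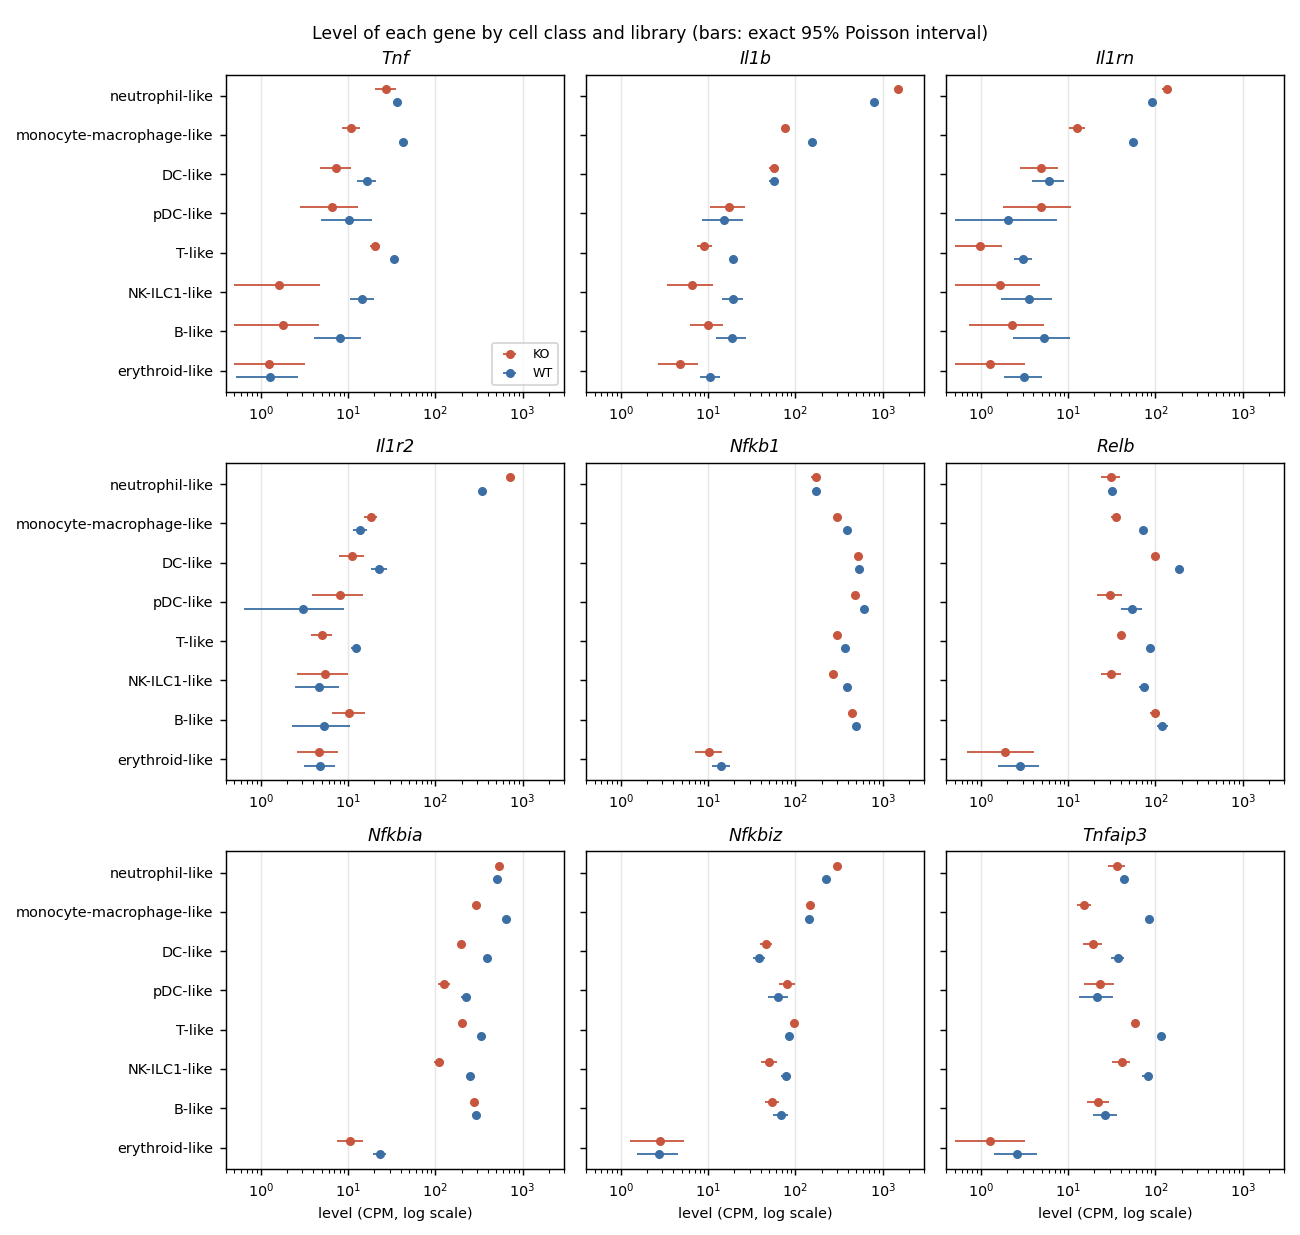
Level of each of the 9 genes (CPM, log axis) in 8 cell classes of the KO and WT libraries, with exact 95% Poisson intervals, cut off at 0.5 CPM where they reach lower. Il1b, Il1rn and Il1r2 stand out in neutrophil-like cells of both libraries, while the KO points for Tnf and Tnfaip3 lie far below the WT points in monocyte-macrophage-like cells.

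The comparison sets the KO library against the WT library. With 1 library per genotype, an effect of the hepatocyte deletion of Bicd2 cannot be told apart from other differences between the libraries. By count, most of the 9 genes past 2-fold were found in monocyte-macrophage-like cells (1824 KO and 1681 WT cells). There 6 of the 9 were past 2-fold lower in KO and none past 2-fold higher, where 4.71% of the 11902 genes measured in that class were past 2-fold lower and 2.28% higher. A gene counts as measured with at least 20 UMIs over both libraries, and past 2-fold means a log2 ratio of CPM plus 1, KO over WT, of at least 1 in size. The median log2 ratio was -1.04 over the 9 genes and -0.07 over all genes measured.

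Tnfaip3 was at 15.2 CPM in KO and 85.3 CPM in WT monocyte-macrophage-like cells, 5.60-fold lower in KO (interval 4.58 to 6.90). Tnf was at 10.9 CPM in KO and 43.0 CPM in WT, 3.95-fold lower (interval 3.09 to 5.11). Il1rn was 4.41-fold lower (interval 3.52 to 5.57). Nfkbia was at 294 CPM in KO and 642 CPM in WT, 2.19-fold lower (interval 2.08 to 2.30), and Relb at 34.8 CPM in KO and 72.7 CPM in WT, 2.09-fold lower (interval 1.80 to 2.43). Il1b was 2.02-fold lower (interval 1.82 to 2.23). The other 3 genes stayed within 2-fold: Nfkb1 had a log2 ratio of -0.38, Nfkbiz was at 145 CPM in KO and 144 CPM in WT, and Il1r2 had a log2 ratio of 0.38.

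Haemoglobin made up 15.3% of UMIs of this class in KO and 4.16% in WT, and enters the total behind each CPM. With haemoglobin genes left out of the total, 3 of the 9 were past 2-fold lower (Tnf, Tnfaip3 and Il1rn, at -1.73, -2.24 and -1.89 on the log2 scale), and Nfkbia was at -0.95 and Relb at -0.87. The 11 neutrophil markers summed to 1332 CPM in KO and 4602 CPM in WT cells of the class, with all 11 seen in each. Subtracting an estimate of free RNA left Tnf at -1.91, Tnfaip3 at -2.44 and Il1b at -1.01 on the log2 scale. Over the 18 alternatives tried, the log2 ratio of Tnfaip3 ranged from -2.75 to -1.85 and that of Tnf from -2.29 to -1.34.

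The class was made of 3 clusters, and the genes divided by how many clusters showed the difference. Cluster 7 carried all 6 classical monocyte markers (such as Ly6c2 and Ccr2), cluster 10 the nonclassical ones (such as Treml4 and Ace), and cluster 11 was led by the complement genes C1qa, C1qb and C1qc with markers of several subtypes. Of the 8 macrophage markers only these 3 passed in cluster 11, and those of Kupffer cells and peritoneal macrophages, such as Clec4f and Timd4, did not. They held 37.0%, 46.1% and 16.9% of the class in KO, and 35.8%, 17.6% and 46.6% in WT. Tnfaip3 was lower in KO in each of them: 10.7 CPM in KO and 42.5 CPM in WT in cluster 7, 19.8 CPM in KO and 85.5 CPM in WT in cluster 10, and 18.1 CPM in KO and 117 CPM in WT in cluster 11. Tnf was also past 2-fold lower in all 3, with log2 ratios of -1.96, -1.56 and -2.18. Nfkbia was past 2-fold lower in clusters 7 (-1.04) and 11 (-1.29) and at -0.86 in cluster 10.

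Il1b was past 2-fold lower in cluster 11 alone. It was at 34.7 CPM in KO and 40.1 CPM in WT in cluster 7, at 103.9 CPM in KO and 122 CPM in WT in cluster 10, and at 123 CPM in KO and 247 CPM in WT in cluster 11. With cluster 11 left out, the log2 ratio of Il1b in the class was 0.0025, that of Il1rn -0.64 and that of Tnfaip3 -1.85, and 2 of the 9 genes (Tnf and Tnfaip3) were past 2-fold lower. In WT, 39.6% of the class's 1240 Il1b UMIs came from the 17 cells that held most of it, 1 of them with 94 UMIs. In KO the top 19 cells held 24.6% of 560 UMIs. Il1rn was at 6.22 CPM in KO and 5.78 CPM in WT in cluster 7. It was past 2-fold lower in cluster 10, at 9.29 CPM in KO and 28.8 CPM in WT, and in cluster 11, at 31.1 CPM in KO and 100.6 CPM in WT. When the cluster levels were combined with the WT makeup in both libraries, the log2 ratios were -2.38 for Tnfaip3, -2.0 for Tnf, -1.51 for Il1rn, -1.15 for Nfkbia, -0.97 for Relb and -0.80 for Il1b. Those of the remaining genes were -0.43 for Nfkb1, -0.32 for Nfkbiz and 0.26 for Il1r2.

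**Figure D2:**
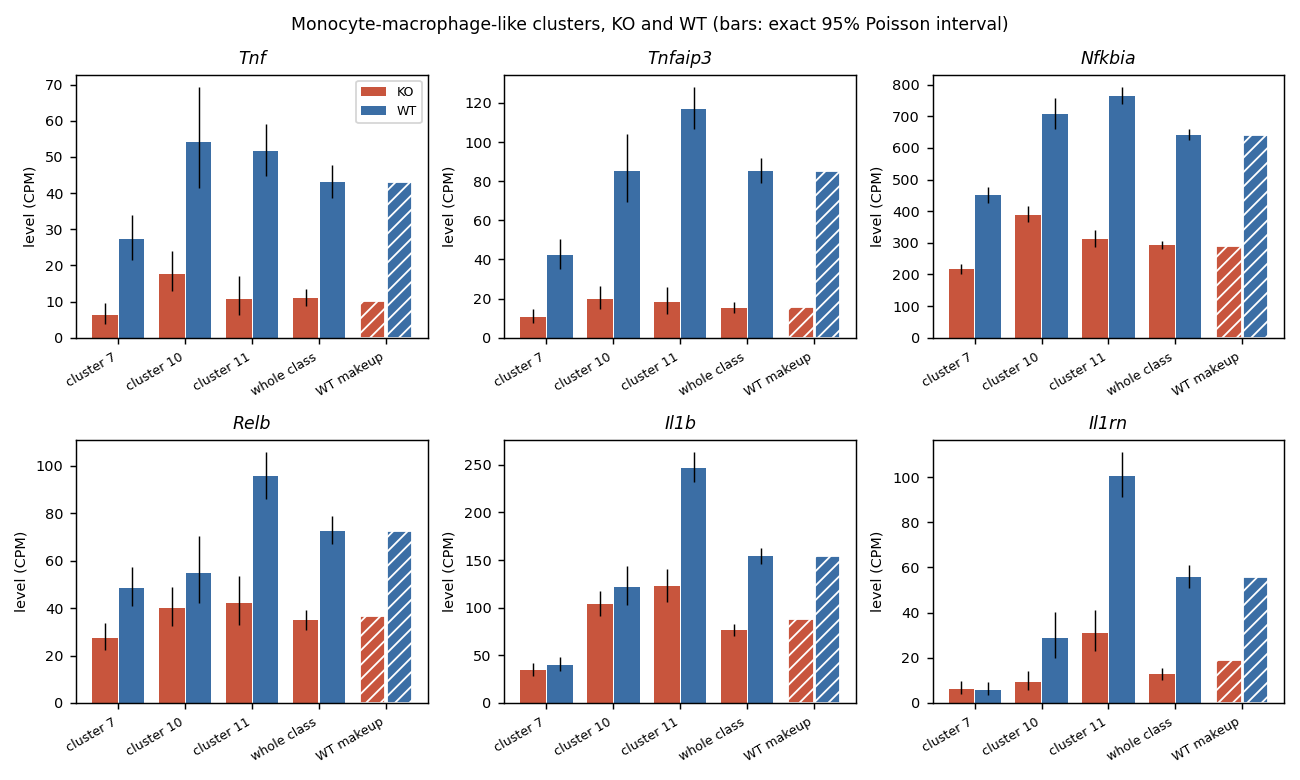
Level (CPM) of 6 genes in the 3 monocyte-macrophage-like clusters and in the whole class, KO beside WT, with exact 95% Poisson intervals; hatched bars combine the cluster levels with the WT share of UMIs per cluster and carry no interval. Tnf and Tnfaip3 were lower in KO in all 3 clusters, while the Il1b bars differ mainly in cluster 11 (123 CPM in KO, 247 CPM in WT).

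The share of cells with a UMI gave the same order when every cell was thinned to 1000 UMIs, haemoglobin included, which left out 203 KO and 200 WT cells of this class. A Tnfaip3 UMI was then seen in 1.23% of KO (interval 0.755 to 1.90) and 7.97% of WT monocyte-macrophage-like cells (interval 6.64 to 9.47), while at full depth it was 5.15% in KO and 25.4% in WT. The share with an Nfkbia UMI was 25.2% in KO and 43.8% in WT (54.5% and 73.1% at full depth), and with a Tnf UMI 0.925% in KO and 3.78% in WT (3.56% and 13.1% at full depth). The Il1b shares were close, 7.65% in KO (interval 6.40 to 9.05) and 9.18% in WT (interval 7.76 to 10.8), as they were at full depth (18.4% in KO and 21.95% in WT). Erythroid-like cells had a median depth of 2976 UMIs in KO and 3456 in WT, against 2972.5 and 3694 here. Their shares were highest for Nfkbia of the 4 genes, at 1.11% in KO and 2.73% in WT after thinning, and 3.22% in KO and 8.04% in WT at full depth. After thinning their Tnf share was 0.201% in KO and 0.266% in WT, and their Tnfaip3 share 0.302% in KO and 0.133% in WT, each from at most 4 cells.

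Among neutrophil-like cells (1520 KO and 4310 WT) the pooled levels ran the other way for the interleukin-1 genes. Il1r2 was the single gene of the 9 past 2-fold higher in KO (2.11-fold, interval 1.99 to 2.24) and none was past 2-fold lower, where 6.68% of 10888 genes were past 2-fold higher and 11.5% lower. Il1b was 1.92-fold higher (interval 1.84 to 1.997) and Il1rn 1.47-fold higher (interval 1.28 to 1.68). Nfkbia was at 538 CPM in KO and 514 CPM in WT, Relb at 30.6 CPM in KO and 31.6 CPM in WT, and Nfkb1 at 170.2 CPM in KO and 174 CPM in WT, log2 ratios between -0.05 and 0.06. Tnf was at 27.1 CPM in KO and 36.4 CPM in WT (ratio 0.746, interval 0.553 to 0.988). Tnfaip3, at 36.0 CPM in KO and 43.3 CPM in WT, did not differ by more than counting error (ratio 0.831, interval 0.642 to 1.06). Over the 19 alternatives the log2 ratio of both genes took either sign, up to 0.50 for each.

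These pooled differences moved with the makeup of the class. Mature cells of cluster 1 were 85.6% of KO and 51.6% of WT neutrophil-like cells, while clusters 12 and 15, which carry granule genes of immature neutrophils such as Camp and Ltf, were 5.46% and 3.88% of KO cells and 21.8% and 17.4% of WT cells. Within cluster 1, Il1b was at 2007 CPM in KO and 1819 CPM in WT, Il1r2 at 965 CPM in KO and 721 CPM in WT, and Il1rn at 142 CPM in KO and 127 CPM in WT, and none of the 9 genes was past 2-fold, where 4.74% of genes in the cluster were lower and 4.42% higher. With the WT makeup in both libraries the class level of Il1b was 722 CPM in KO and 787 CPM in WT, and that of Il1r2 402 CPM in KO and 344 CPM in WT. The log2 ratio of Il1b thereby changed sign, at -0.12, and those of Tnf and Tnfaip3 were -0.49 and -0.75. Cells thinned to 1000 UMIs gave log2 ratios of 0.71 for Il1r2 and 0.42 for Il1b, and TMM scaling, which moved the median of all genes in the class by -0.18, gave 0.87 and 0.74. The median depth of the class was 1023.5 UMIs in KO and 2156.5 in WT, and 718 of the 1520 KO cells lie under 1000 UMIs, against 463 of the 4310 WT cells.

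A small mature cluster, 22, held 46 of the 73 Tnfaip3 UMIs of KO neutrophil-like cells and 378 of the 559 in WT. Its 77 KO and 393 WT cells were led by Cxcl2, Acod1 and Ptgs2, genes known to be induced by inflammatory stimuli. Clusters were formed without the 9 genes, but from genes known to be induced with them, so the values are a description. Nfkbia was at 2275 CPM in KO and 3069 CPM in WT cells of cluster 22, and at 453 CPM in KO and 495 CPM in WT cells of cluster 1. Tnfaip3 was at 325 CPM in KO and 520 CPM in WT in cluster 22, and at 18.4 CPM in KO and 21.1 CPM in WT in cluster 1. With haemoglobin in the total, Tnf was at 226 CPM in KO (32 UMIs) and 219 CPM in WT (159 UMIs) in cluster 22. Il1b was past 2-fold lower in this cluster, at 1583 CPM in KO and 3446 CPM in WT. It was the 1 gene of the 9 past 2-fold, where 28.4% of all genes in the cluster were lower and 2.9% higher, with a median log2 ratio over all genes of -0.57, so that its count lies under the background. Haemoglobin took 41.6% of UMIs of the 77 KO cells and 9.72% of those of the WT cells. It enters the total behind each CPM and so lowers the KO levels more than the WT levels. Levels without it were not computed for this cluster, and its part in these values was not tested.

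**Figure D3:**
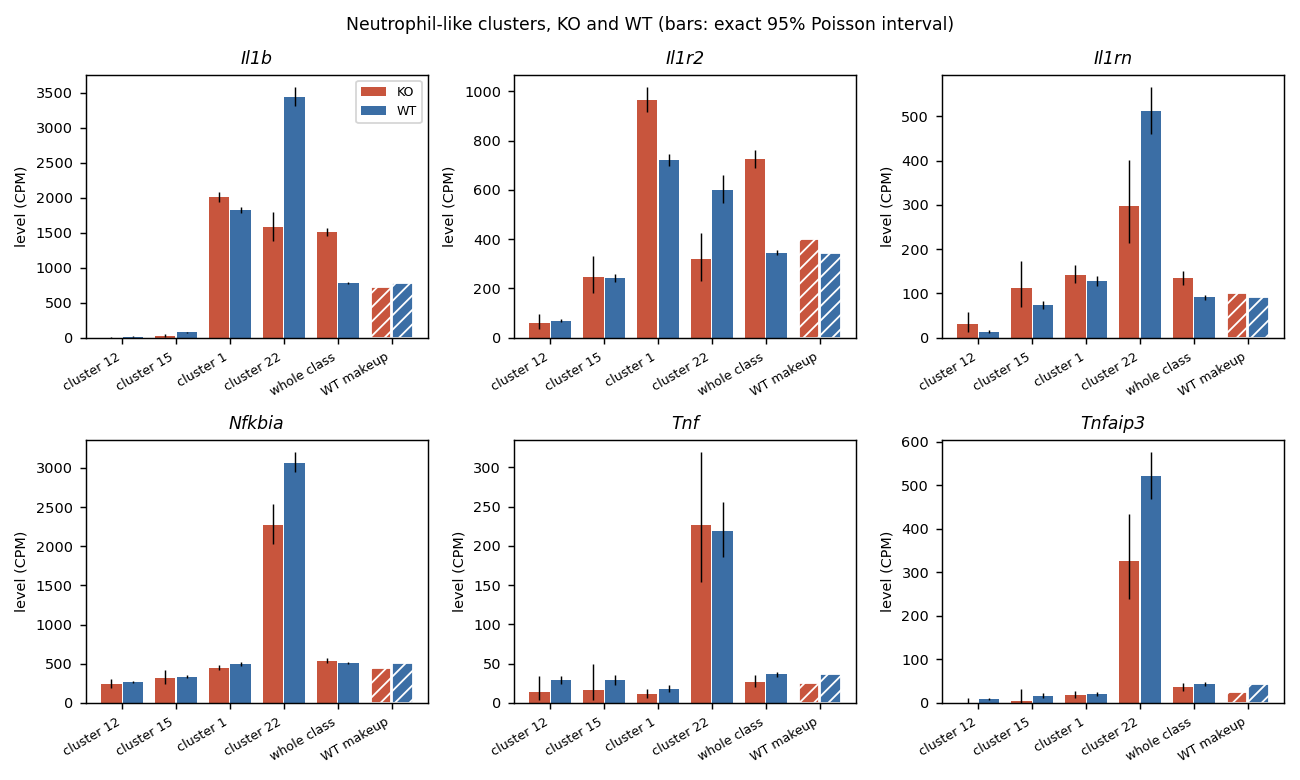
Level (CPM) of 6 genes in the 4 neutrophil-like clusters and in the whole class, KO beside WT, with exact 95% Poisson intervals; hatched bars combine the cluster levels with the WT share of UMIs per cluster and carry no interval. The whole-class bars of Il1b and Il1r2 are higher in KO (1509.7 and 724.5 CPM) than in WT (787 and 344 CPM), while the bars of cluster 1 and the hatched bars lie close together.

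T-like cells (4902 KO and 6305 WT) had 4 of the 9 genes past 2-fold lower in KO and none higher, where 7.39% of 13659 genes were past 2-fold lower and 2.99% higher. Of the 4, Il1b, Il1rn and Il1r2 had low levels over the class, at most 9.06 CPM in KO and 19.4 CPM in WT, in cells whose summed neutrophil markers were at 573 CPM in KO and 3604 CPM in WT. The fourth gene was Relb, at 40.6 CPM in KO and 86.4 CPM in WT, 2.13-fold lower (interval 1.92 to 2.36). Tnfaip3 was 1.96-fold lower (interval 1.80 to 2.14), Tnf 1.67-fold lower (interval 1.44 to 1.95) and Nfkbia 1.62-fold lower (interval 1.55 to 1.703). Under DESeq2 size factors none of the 9 passed 2-fold, with Relb at -0.97 on the log2 scale. With the WT makeup of clusters, 4 genes were again past 2-fold lower, but these were Tnf (-1.31), Il1rn (-1.16), Relb (-1.07) and Tnfaip3 (-1.03), while Il1b was at -0.54 and Il1r2 at -0.80.

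Different clusters held most T-like cells in each library: cluster 0, led by Il4 and Zbtb16, was 66.1% of KO and 10.0% of WT T-like cells, and cluster 2, which includes Cd4 among its leading genes, 1.45% of KO and 50.8% of WT. Relb was at 44.3 CPM in KO and 108 CPM in WT in cluster 0, and at 55.7 CPM in KO (9 UMIs) and 104 CPM in WT in cluster 2. Tnfaip3 was at 60.0 CPM in KO and 161 CPM in WT in cluster 0, 2.68-fold lower (interval 2.29 to 3.13). Tnf did not follow it there, with 28.7 CPM in KO and 22.6 CPM in WT, a log2 ratio of 0.33. Tnf was highest in WT in cluster 2, at 50.6 CPM, where KO had 2 UMIs. Of the 62 KO T-like cells with a Tnf UMI after thinning, 52 belonged to cluster 0, and of the 200 WT cells, 137 belonged to cluster 2. In the regulatory cluster 21, led by Foxp3, Relb was at 26.4 CPM in KO and 90.4 CPM in WT and Nfkbia at 199.7 CPM in KO and 450.1 CPM in WT. Il1r2 was above background in WT in cluster 21, at 5.87 CPM in KO (2 UMIs) and 46.1 CPM in WT (50 UMIs), a ratio of 0.127 (interval 0.0150 to 0.485), against 4.70 CPM in KO and 4.80 CPM in WT erythroid-like cells. Nfkbiz was at 97.2 CPM in KO and 83.4 CPM in WT over the class, but at 120.0 CPM in KO and 222 CPM in WT in cluster 0, and with the WT makeup its log2 ratio turned to -0.39, against 0.22.

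NK-ILC1-like cells (909 KO and 711 WT) had 4 of 8 measured genes past 2-fold lower in KO and none higher, where 9.76% of 9946 genes were past 2-fold lower and 2.65% higher. Nfkbia was at 110.1 CPM in KO and 253 CPM in WT, 2.30-fold lower (interval 1.96 to 2.70), and Relb 2.37-fold lower (interval 1.76 to 3.24). Tnf was 8.88-fold lower, but from 3 UMIs in KO, so the interval runs from 2.83 to 44.8. The fourth gene was Il1b, at background level. Haemoglobin was 20.7% of UMIs in KO and 4.71% in WT, and without haemoglobin in the total 2 genes (Tnf and Il1b) were past 2-fold lower, with Relb at -0.96 and Nfkbia at -0.93 on the log2 scale.

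DC-like cells (596 KO and 599 WT) had 2 of the 9 genes past 2-fold lower and none higher, where 2.57% of 11069 genes were past 2-fold lower and 2.47% higher. Nfkbia was at 196 CPM in KO and 394 CPM in WT, just past the threshold, and Tnf at 7.37 CPM in KO (26 UMIs) and 16.5 CPM in WT (63 UMIs). Relb was just inside it, at 98.7 CPM in KO and 184 CPM in WT, 1.87-fold lower (interval 1.64 to 2.13). It was lower in both clusters: 179 CPM in KO and 350.1 CPM in WT in cluster 16, which carries markers of type 2 and migratory dendritic cells, and 16.6 CPM in KO and 41.0 CPM in WT in cluster 23, which carries all 5 type 1 markers. Nfkb1 did not differ by more than counting error, with 527 CPM in KO and 543 CPM in WT (ratio 0.971, interval 0.911 to 1.03), nor did Il1b. Haemoglobin took 10.7% of UMIs in KO and 4.38% in WT, and with it left out, or with TMM or DESeq2 scaling, neither gene passed 2-fold (Nfkbia at -0.91, -0.94 and -0.91).

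B-like cells (1355 KO and 655 WT) showed no gene of 7 measured past 2-fold, where 2.71% of 9592 genes were past 2-fold lower and 1.4% higher. Nfkbia was at 280.5 CPM in KO and 294 CPM in WT (ratio 0.955, interval 0.844 to 1.08), and Relb at 99.4 CPM in KO and 119.9 CPM in WT (ratio 0.829, interval 0.677 to 1.01). Plasmacytoid dendritic (pDC-like) cells, 339 in KO and 244 in WT, also had none of 6 past 2-fold, where 4.87% of 8862 genes were lower and 2.16% higher, and Nfkbia was 1.77-fold lower (interval 1.43 to 2.18). In erythroid-like cells, 2 of 7 measured genes (Il1b and Nfkbia) were past 2-fold lower and none higher, at levels of free RNA, where 7.64% of 4334 genes were lower and 5.01% higher.

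**Figure D4:**
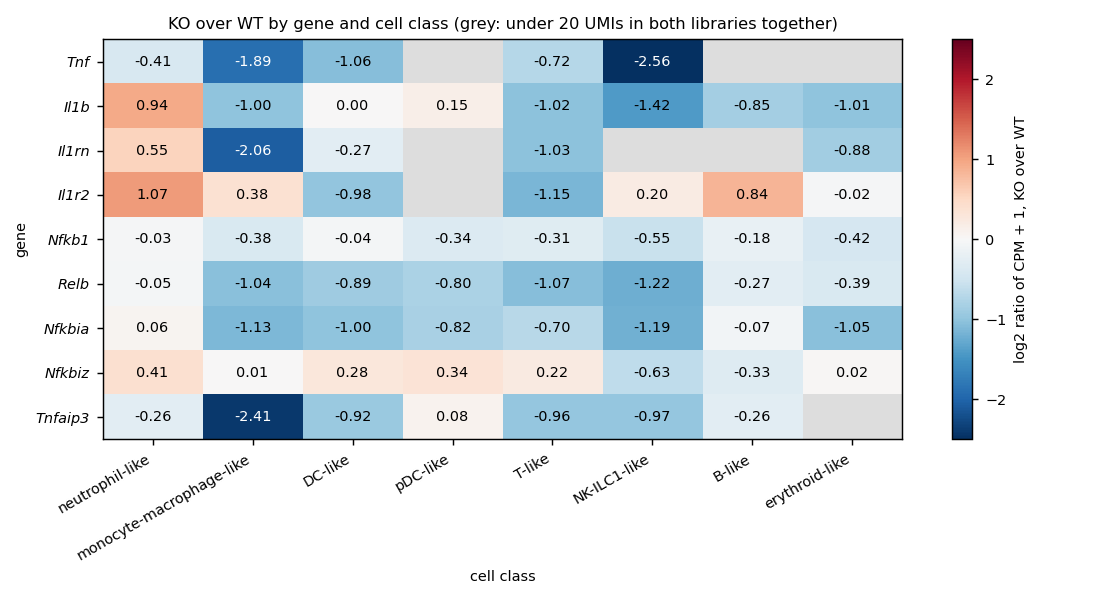
Log2 ratio of CPM plus 1, KO over WT, for each of the 9 genes (rows) in 8 cell classes (columns); grey marks under 20 UMIs over both libraries. The monocyte-macrophage-like column holds the lowest values for Tnfaip3 (-2.41) and Il1rn (-2.06), the NK-ILC1-like column that for Tnf (-2.56), and Nfkb1 stays between -0.55 and -0.03 in every column.

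Cells that carried Tnf were compared with the other cells of their class, after thinning to 1000 UMIs. In WT neutrophil-like cells, the 122 cells with a Tnf UMI had 467 CPM of Tnfaip3, against 49.7 CPM in the 3725 cells without, a ratio of 9.41 (interval 6.86 to 12.7). Nfkbia was 3.97 times as high (interval 3.50 to 4.48) and Relb 3.16 times as high (interval 1.72 to 5.38), while Il1r2 was lower in cells with Tnf (ratio 0.685, interval 0.492 to 0.929). Of the 122 cells, 55 belonged to cluster 22. Within cluster 22 the Tnfaip3 ratio was 2.10 (interval 1.498 to 2.91) and the Nfkbia ratio 1.61 (interval 1.40 to 1.86). In the other neutrophil-like clusters the Nfkbia ratio was 1.18 (interval 0.811 to 1.65), and Tnfaip3 had 2 UMIs in the 67 cells with Tnf.

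The pattern was not the same in other classes. In WT monocyte-macrophage-like cells, the 56 cells with Tnf had more Il1b (ratio 3.27, interval 1.999 to 5.12) and Nfkbia (ratio 1.83, interval 1.41 to 2.35), while the Tnfaip3 ratio was 1.01 (interval 0.322 to 2.42). In WT T-like cells, the 200 cells with Tnf had ratios of 1.06 for Tnfaip3, 1.13 for Nfkbia and 0.911 for Relb, each with an interval that holds 1, and of 1.28 for Nfkb1 (interval 1.04 to 1.57). In KO T-like cells, the 62 cells with Tnf had a Relb ratio of 3.71 (interval 1.67 to 7.23), from 9 UMIs, and an Nfkbia ratio of 1.695 (interval 1.04 to 2.61). The difference between the libraries and classes was not tested.

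**Figure D5:**
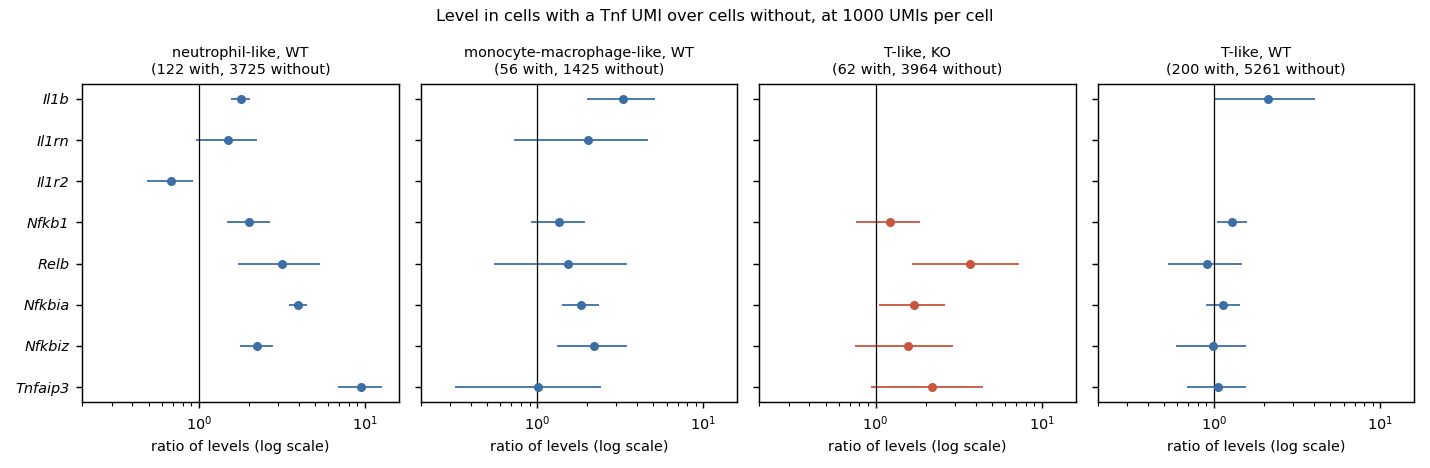
Ratio of the level of 8 genes in cells with a Tnf UMI over cells without one (log axis), with 95% counting intervals, in 4 sets of cells thinned to 1000 UMIs; genes with fewer than 3 UMIs in cells with Tnf are left out, and the line marks equal levels. Tnfaip3 lies at 9.41 in WT neutrophil-like cells and at 1.06 in WT T-like cells.

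Across the 16 points made of 8 classes and 2 libraries, the 9 genes fell into likeness groups, given as a description with no test, since points of a library share its depth and free RNA. On the log2 scale of CPM plus 1, Il1b had a Pearson r of 0.96 with Il1rn and 0.92 with Il1r2, while its r with Nfkb1 was 0.17. Nfkb1 had an r of 0.93 with Relb, and Nfkbia one of 0.91 with Nfkbiz and 0.83 with Tnfaip3. Among all other genes with at least 200 UMIs, the pair most like Il1b was Siglece and Pram1 (0.99 each) and the pair most like Tnf was Glrx and Fas (0.91 and 0.90). For Il1rn these were Ccr1 and Rnd1 (0.97 each), and for Il1r2 Sycp2 (0.97) and Rab44 (0.96). For Nfkb1 they were Ywhae and Tent2 (0.99 each), and for Relb Nap1l1 and Pmf1 (0.96 each). Nfkbia was most like Gmfg and Parp14 (0.97 each), Nfkbiz like Rgs14 (0.98) and Svil (0.97), and Tnfaip3 like Nherf1 (0.97) and Hk1 (0.96).

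Other genes of the pathway were examined in lists that hold none of the 9 genes, and the highest and lowest named below are among genes with at least 50 UMIs. Of 17 measured inflammatory genes known to be induced by NF-kB, 11 were past 2-fold lower and 1 past 2-fold higher in KO monocyte-macrophage-like cells. Among all genes of that class 4.71% were past 2-fold lower and 2.28% higher. The median log2 ratio was -1.29 over the 17 genes, against -0.07 over all genes. The lowest was Sod2, the mitochondrial superoxide dismutase, at 69.9 CPM in KO and 351 CPM in WT, and the highest was the chemokine gene Cxcl2, at 15.2 CPM in KO and 7.07 CPM in WT. In NK-ILC1-like cells 9 of 12 of these genes were past 2-fold lower and none higher, where 9.76% of all genes were lower and 2.65% higher. In DC-like cells it was 6 of 14 and none, where 2.57% were lower and 2.47% higher. In T-like cells it was 6 of 15 and none, where 7.39% were lower and 2.99% higher. Erythroid-like cells, taken as the background of free RNA, had 5 of 8 lower and 1 higher, where 7.64% were lower and 5.01% higher. Their median log2 ratio was -1.39. The part of free RNA in the counts of the other classes was not tested. In neutrophil-like cells 1 of 15 was past 2-fold lower and none higher, which is under the 11.5% lower and 6.68% higher of all genes. The lower gene was Bcl2a1d, a survival gene, with 3 of 2027616 UMIs in KO and 114 of 12896015 UMIs in WT. The highest was Ier3, with a log2 ratio of 0.44. Bcl2a1d has near-identical copies in its family, so its count is uncertain.

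Of the 15 genes of negative feedback, 2 were past 2-fold lower in monocyte-macrophage-like cells, where 4.71% of all genes were. The lowest was Tnip3, which encodes an A20-binding protein, at 9.93 CPM in KO and 60.8 CPM in WT. The highest was the ubiquitin ligase gene Itch, with a log2 ratio of 0.49. In neutrophil-like cells the mRNA decay factor gene Zfp36l1 was highest, at 193 CPM in KO and 88.3 CPM in WT, and the deubiquitinase gene Otulin was lowest, at -0.26.

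Of 17 measured genes of the interleukin-1 family, its receptors and release, 5 were past 2-fold lower in monocyte-macrophage-like cells, where 4.71% of all genes were. Il18bp, the secreted inhibitor of interleukin-18, was at 2.18 CPM in KO and 32.6 CPM in WT, 14.98-fold lower (interval 9.05 to 26.6). Il1rap, the accessory chain of the interleukin-1 receptor, was highest in both myeloid classes, with a log2 ratio of 0.63 in monocyte-macrophage-like cells. In neutrophil-like cells it was at 938 CPM in KO and 244 CPM in WT, and the inflammasome adaptor gene Pycard was lowest, at 21.7 CPM in KO and 57.3 CPM in WT. There 2 of 18 genes were past 2-fold in each direction, near the 11.5% lower and 6.68% higher of all genes. In T-like cells 9 of 18 genes of this list were past 2-fold lower and none higher, where 7.39% of all genes were lower and 2.99% higher.

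Of the 14 subunits, inhibitors and kinases of the NF-kB pathway, 4 were past 2-fold lower in monocyte-macrophage-like cells and none in neutrophil-like cells, with none higher in either. Among all genes 4.71% were past 2-fold lower in monocyte-macrophage-like cells and 11.5% in neutrophil-like cells. The kinase gene Ikbke was lowest of the 14 in both classes (-1.40 and -0.58) and Map3k14, which encodes the kinase of the noncanonical pathway, highest (0.70 and 0.82). Of 14 genes of TNF receptors and adaptors, 2 were past 2-fold lower in monocyte-macrophage-like cells, from the adaptor gene Traf1 at -1.09 to the receptor gene Tnfrsf1b at 0.02. In neutrophil-like cells 2 of 13 were lower and 1 higher, near the 11.5% and 6.68% of all genes, from the adaptor gene Tradd at -1.15 to Tnfrsf1b, at 204 CPM in KO and 85.8 CPM in WT.

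Early response genes, which cell isolation is known to induce, were followed as a check on handling. In monocyte-macrophage-like cells 2 of 13 were past 2-fold lower and 2 higher, where 4.71% of all genes were lower and 2.28% higher. The median log2 ratio of the 13 was 0.03, from Egr1 at -1.56 to Hspa1a at 1.72. In neutrophil-like cells 6 of 12 were past 2-fold higher in KO and none lower, where 6.68% of all genes were higher and 11.5% lower. The median of the 12 was 1.03, from Egr1 at -0.49 to Jund at 1.48. Their part in the neutrophil-like values was not tested.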

How the data were processed

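The 2 deposited tables hold raw UMI counts per gene and barcode, 1 library per genotype, with no normalization by the authors. Reads were processed with Cell Ranger and Seurat 4.3.0 against mm39, per the submitters' processing notes, which name Cell Ranger 6.0.1, while the file headers name Cell Ranger 8.0.1. Barcodes with fewer than 200 genes (9283 KO, 1919 WT) or more than 20% mitochondrial UMIs (75 KO, 111 WT) were left out. Scrublet (in scanpy) then marked as doublets and removed 2056 KO barcodes (11.6%) and 3087 WT barcodes (15.3%), at an assumed rate of 0.8% per 1000 barcodes.

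Cells of both libraries were clustered together (scanpy 1.11.5, Leiden at resolution 1, leidenalg 0.10.2; 2000 variable genes, 30 principal components, 15 neighbours) without the 9 genes, and gave 28 clusters. A cluster was named from at least 3 markers that were at least 2-fold higher in it and seen in at least 10% of its cells. The 6 unnamed clusters met this rule but were set aside for other reasons. Either their leading genes held more markers of another class, or their median haemoglobin share was over 10%, or under 75% where erythroid markers led. They include cluster 13 with T markers (728 KO and 239 WT cells) and cluster 19 with B markers and haemoglobin (518 KO and 30 WT cells). The rebuilt names may differ from those of the study. UMIs were summed per class and library and expressed as CPM, and ratios used CPM plus 1. Intervals are exact: Poisson for sums, conditional binomial for ratios and Clopper-Pearson for shares. For shares, cells were thinned to 1000 UMIs, which left out 2638 KO and 1903 WT cells.

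Scaling factors came from edgeR 4.0.16 (TMM) and DESeq2 1.42.0 in R 4.3.3 and served only as alternatives. The ratio intervals and 2-fold calls were tested on data simulated with Poisson counting error alone, the model behind the intervals. This checks the code and says nothing of the spread between cells or mice. The thinning was not tested. The 9 genes and all lists were chosen with earlier results of these data known, so they give no independent support. Named genes are the 9, the 2 genes most like each in level across classes, and from each list the highest and lowest by log2 ratio in the myeloid classes, among genes with at least 50 UMIs.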

Additional observations from a re-analysis of the deposited data

Results flagged for a closer look

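The KO over WT log2 ratio had opposite signs in different classes, with counting intervals of the ratio on opposite sides of 1, for 4 of the 9 genes, with 1 library per genotype and no test of the difference. For Il1b it was 0.94 in neutrophil-like cells and -1.42 in NK-ILC1-like cells, where the level was that of background. For Il1rn it was 0.55 in neutrophil-like cells and -2.06 in monocyte-macrophage-like cells. For Il1r2 it was 1.07 in neutrophil-like cells and -1.15 in T-like cells, where 47.7% of the WT UMIs lay in 64 cells, the 1% of cells with most of them. In the Foxp3-led cluster 21 it was at 5.87 CPM in KO and 46.1 CPM in WT. For Nfkbiz it was 0.41 in neutrophil-like cells and -0.63 in NK-ILC1-like cells. With the WT makeup of clusters in both libraries, the neutrophil-like log2 ratios were -0.12 for Il1b, 0.13 for Il1rn, 0.23 for Il1r2 and -0.25 for Nfkbiz.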

How the results depend on the processing

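No paired analysis was possible because each genotype has 1 library and the labels give no replicate numbers that pair them. Of 1030 single-gene values under the alternatives, 887 moved by no more than their counting interval, 142 moved further, and 1 that had been past 2-fold reversed. This was Il1b in monocyte-macrophage-like cells, at 0.0025 on the log2 scale with cluster 11 left out. Alternatives that change only the minimum count leave each ratio as it was, so their values are among the 887 by construction. Ratios within 2-fold that changed sign were not counted as reversed. An example is Il1b in neutrophil-like cells, whose log2 ratio ranged from -0.12 to 1.26. Leaving out clusters and using the WT makeup were chosen after seeing the data. Of 262 counts of genes past 2-fold, 224 stayed within 1.5 times, and the causes of the rest were not tested. The 224 include counts of 0 that stayed at 0, such as genes past 2-fold higher in monocyte-macrophage-like cells.

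In monocyte-macrophage-like cells the count lower in KO (6) was 3 without haemoglobin in the total and 2 with cluster 11 left out. In neutrophil-like cells the count higher (1) was 0 with TMM, thinned cells, the WT makeup, or cluster 1 or 12 left out. It was 2 with DESeq2 size factors, doublets kept, haemoglobin out of the total, cells over 10% haemoglobin left out, or cluster 22 left out, which also gave 1 gene lower against 0. In T-like cells the count lower (4) was 0 with DESeq2 size factors or a pseudocount of 10, and 2 with TMM, doublets kept, the 9 genes used for clustering, or cluster 2 or 6 left out. In NK-ILC1-like cells the count lower (4) was 2 with a minimum count of 100 or haemoglobin out of the total and 1 with thinned cells. In DC-like cells the count lower (2) was 0 with TMM, DESeq2 size factors, a pseudocount of 10 or haemoglobin out of the total, and 1 with a minimum count of 100 or the 9 genes used for clustering.

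In pDC-like cells 3 genes were lower with doublets kept and 1 higher with no minimum count, against 0 in each direction. In B-like cells 1 was lower with no minimum count and 1 higher with at least 500 genes and at most 10% mitochondrial UMIs, against 0. In erythroid-like cells the count lower (2) was 0 with a pseudocount of 10 or free RNA subtracted, and 1 with a minimum count of 100, thinned cells or a clustering resolution of 2. Depth limits Tnf in NK-ILC1-like cells, with 3 UMIs in KO and 41 in WT.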

Other observations

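An unnamed cluster, 20, with 416 KO and 95 WT cells, carried neutrophil genes beside haemoglobin, which took 60.7% of its UMIs in KO and 59.5% in WT. Il1b was at 728 CPM in KO and 545 CPM in WT there, and Il1r2 at 328 CPM in KO and 291 CPM in WT. The cluster held 1086039 UMIs in KO and 488207 in WT. Tnf had 7 UMIs in KO (6.45 CPM) and 5 in WT (10.2 CPM) in this cluster, and Tnfaip3 had 8 UMIs in KO and 3 in WT.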
